A study of Mus musculus with 65 samples.

Results

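A family of 7 imprinted protein-coding genes, Ndn, Mest, Nnat, Gnas, Snrpn, Igf2r and Magel2, was followed through 65 single cells of the mouse embryonic cortex. They are 7 of the 11971 genes in the deposited count table. They were chosen by name as a family of imprinted genes after an earlier look at these same data had shown that Ndn and Mest varied strongly between cells. The spread of these 2 genes over cells is therefore given below as a description. The cells came from C57BL/6J embryos at E13.5, a day of embryonic development at which cortical progenitors give rise to neurons. Cortical hemispheres were freed of the ganglionic eminences, the brains of all embryos were combined, and single cells that took up no propidium iodide, a dye that enters dead cells, were sorted into a lysis buffer for full-length cDNA synthesis. There is 1 group, for which the labels name no treatment and no mutation, and the animals behind the cells are not named, so that cells are not replicates and no test was made between them. The numbers in the titles divide the cells into 3 sets of 31, 13 and 21 cells, which the labels do not explain and which were handled as possible batches.

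Every cell is labelled as a neural progenitor, but the marker genes fit that label only in some of the cells. Sox2, a transcription factor of neural stem cells, reached 10 CPM, that is 10 of every 1000000 reads of a cell, in 22 of 65 cells. Dcx, which encodes a microtubule protein of young migrating neurons, reached that level in 34 cells, and the excitatory neuron factor Neurod6 did so in 16 cells. Read depth ranged from 85338 to 32130629 counts per cell, with a median of 14609426, and 3 cells had fewer than 1000000. The kit carries no molecular barcodes, so reads are not independent molecules. Every interval below covers counting error at most, and Poisson intervals on summed reads are too narrow even for that.

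Imprinted genes are read from the copy of a single parent, a choice set by DNA methylation laid down in the egg or the sperm. Snrpn, Ndn and Magel2 are neighbours in the domain whose human counterpart is lost in Prader-Willi syndrome, and all are read from the paternal copy. Mest, also called Peg1, and Nnat are paternally expressed as well, whereas Igf2r is maternally expressed in most tissues and Gnas has several promoters of different parental origin. Imprinted genes are known for their part in growth of the embryo and in brain development. The deposited counts do not separate the parental copies, so that only total levels are described.

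The sequences around the starts of 5 of these genes show how unlike their promoters are. Each stretch runs from 250 before to 50 bases after a transcription start and was taken from RefSeq on build GRCm38.p6, and all 7 genes had an entry. Where a gene had more than 1 start in that table, the start with the most CG pairs was taken. CG pairs, the bases at which the parental methylation marks sit, are in capitals. The Ndn stretch is chr7:62348027-62348326 on the plus strand, and the Nnat stretch, inside an intron of Blcap in the usual gene models, is chr2:157559828-157560127 on the plus strand. The Snrpn stretch is chr7:60005150-60005449 on the minus strand, the Magel2 stretch is chr7:62376729-62377028 on the plus strand, and the Mest stretch is chr6:30737800-30738099 on the plus strand. The counts were made on another build, mm9, so these positions belong to the printed sequences alone.
Ndn: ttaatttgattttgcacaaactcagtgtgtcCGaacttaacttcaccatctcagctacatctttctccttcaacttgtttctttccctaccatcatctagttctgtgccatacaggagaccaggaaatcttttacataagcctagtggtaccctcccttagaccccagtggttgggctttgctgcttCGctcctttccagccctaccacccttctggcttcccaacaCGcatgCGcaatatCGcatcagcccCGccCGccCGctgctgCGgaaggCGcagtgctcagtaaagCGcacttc
Nnat: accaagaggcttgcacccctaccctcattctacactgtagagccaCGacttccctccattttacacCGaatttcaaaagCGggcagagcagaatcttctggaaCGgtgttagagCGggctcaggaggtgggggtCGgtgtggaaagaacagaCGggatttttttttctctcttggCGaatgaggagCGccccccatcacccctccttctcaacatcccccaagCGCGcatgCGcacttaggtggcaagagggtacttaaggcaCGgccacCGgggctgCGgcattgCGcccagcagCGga
Snrpn: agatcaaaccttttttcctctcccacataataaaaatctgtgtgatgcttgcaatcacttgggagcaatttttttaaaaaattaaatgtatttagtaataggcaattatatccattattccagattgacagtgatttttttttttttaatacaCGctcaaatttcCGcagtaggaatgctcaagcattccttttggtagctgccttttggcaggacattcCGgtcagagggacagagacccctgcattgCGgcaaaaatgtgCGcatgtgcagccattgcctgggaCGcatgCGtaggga
Magel2: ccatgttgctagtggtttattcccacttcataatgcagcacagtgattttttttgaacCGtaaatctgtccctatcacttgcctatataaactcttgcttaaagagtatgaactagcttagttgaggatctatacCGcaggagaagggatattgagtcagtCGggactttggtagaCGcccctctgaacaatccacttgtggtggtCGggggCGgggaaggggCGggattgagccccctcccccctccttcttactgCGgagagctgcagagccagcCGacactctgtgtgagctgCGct
Mest: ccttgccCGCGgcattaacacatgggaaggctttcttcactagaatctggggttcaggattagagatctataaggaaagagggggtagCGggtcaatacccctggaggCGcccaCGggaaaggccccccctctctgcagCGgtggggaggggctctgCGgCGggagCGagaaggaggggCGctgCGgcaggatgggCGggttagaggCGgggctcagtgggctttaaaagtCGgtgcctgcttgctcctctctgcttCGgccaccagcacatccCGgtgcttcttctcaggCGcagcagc

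The stretches held 11 CG pairs at Ndn, 17 at Nnat, 7 at Snrpn, 10 at Magel2 and 17 at Mest. Gnas had 40 and Igf2r had 34, against a median of 8 over the promoters of 27025 genes. CAGCTG and CAGATG, 2 forms of the E-box bound by proneural transcription factors, were searched on both strands and occurred in none of the 7 stretches, though another Mest start in the table, with 8 CG pairs, holds 1 CAGCTG. They occur in 15.97% and 16.86% of all promoters. The palindrome CGCATGCG, the core of the motif of the transcription factor NRF1, was searched after the sequences had been seen. It was present in 3 of the 7, at Ndn, Nnat and Snrpn, and in 1.93% of all promoters. These letters are a description of the windows and say nothing of whether a factor was bound.

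The 7 genes fell into 3 kinds by how they were spread over cells. Nnat and Gnas were read in nearly every cell, Mest and Igf2r in about the same number of cells as not, and Ndn, Snrpn and Magel2 in a minority that stood apart from the rest. A cell was counted as expressing a gene at 10 CPM or more. CPM is not divided by transcript length, so the same level can stand for different amounts of transcript in different genes, and levels are compared below within a gene only.

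Nnat encodes neuronatin, a small membrane protein of the endoplasmic reticulum in developing neurons. It ranged from 4.07 to 8954 CPM, with a median of 294 and a mean of 716 ± 1350 CPM (SD over 65 cells), and 62 of 65 cells reached 10 CPM (95.4%, exact 95% Clopper-Pearson interval 87.1 to 99.04%). Gnas encodes the stimulatory G-protein alpha subunit, which couples hormone and neurotransmitter receptors to cyclic AMP. It ranged from 0.754 to 2496 CPM with a median of 464 and a mean of 572 ± 529 CPM (SD over 65 cells), and it too reached 10 CPM in 62 cells.

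Mest encodes an enzyme of the alpha/beta hydrolase fold. Its lowest cells had no read, its median was 12.3 CPM, its highest cell had 4258 CPM, and its mean was 338 ± 767 CPM (SD over 65 cells). It reached 10 CPM in 34 cells (52.3%, interval 39.5 to 64.9%), in 15 of 31 cells of title set 1, 9 of 13 of set 2 and 10 of 21 of set 3. Igf2r encodes the receptor that takes up insulin-like growth factor 2 for breakdown and sorts lysosomal enzymes. It also reached 10 CPM in 34 cells, with no read in its lowest cells, a median of 11.7 and a highest cell at 1030 CPM (mean 67.7 ± 166 CPM, SD over 65 cells). Both genes graded across the threshold, with 8 cells between 1 and 10 CPM for Mest and 3 for Igf2r.

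The 3 genes of the Prader-Willi domain were either read well or hardly at all. Ndn encodes necdin, a protein of the MAGE family abundant in neurons that have left the cell cycle. It reached 10 CPM in 12 cells (18.5%, interval 9.92 to 30.03%), and no cell lay between 1.04 CPM, from 5 reads, and 21.5 CPM, from 159 reads. Its median was 0.0890 CPM and its mean 153 ± 475 CPM (SD over 65 cells), and the 5 highest cells held 86.2% of its summed CPM. Snrpn encodes SmN, a spliceosomal protein that is abundant in neurons. It reached 10 CPM in 13 cells (interval 11.1 to 31.8% of the 65), from 19.2 to 215 CPM, while the highest of the other 52 cells had 0.171 CPM (mean over all 65 cells 14.3 ± 37.6 CPM, SD). Magel2, a MAGE-family gene that acts in the recycling of proteins from endosomes, reached 10 CPM in 9 cells (13.8%, interval 6.53 to 24.7%), from 11.5 to 297 CPM, with 0.128 CPM as the highest of the rest (mean over all 65 cells 18.1 ± 57.6 CPM, SD). Magel2 had no read in any of the 13 cells of title set 2, where 0 of 13 allows a share of up to 23.1% by the rule of 3 counts over the number of cells.

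Between 1 and 6 of the 7 genes reached 10 CPM in the same cell. Most cells had 3 or 4 of them, with 19 and 20 cells, and no cell had all 7. The plot of levels by class of cell shows the 3 kinds of spread side by side.

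**Figure D1:**
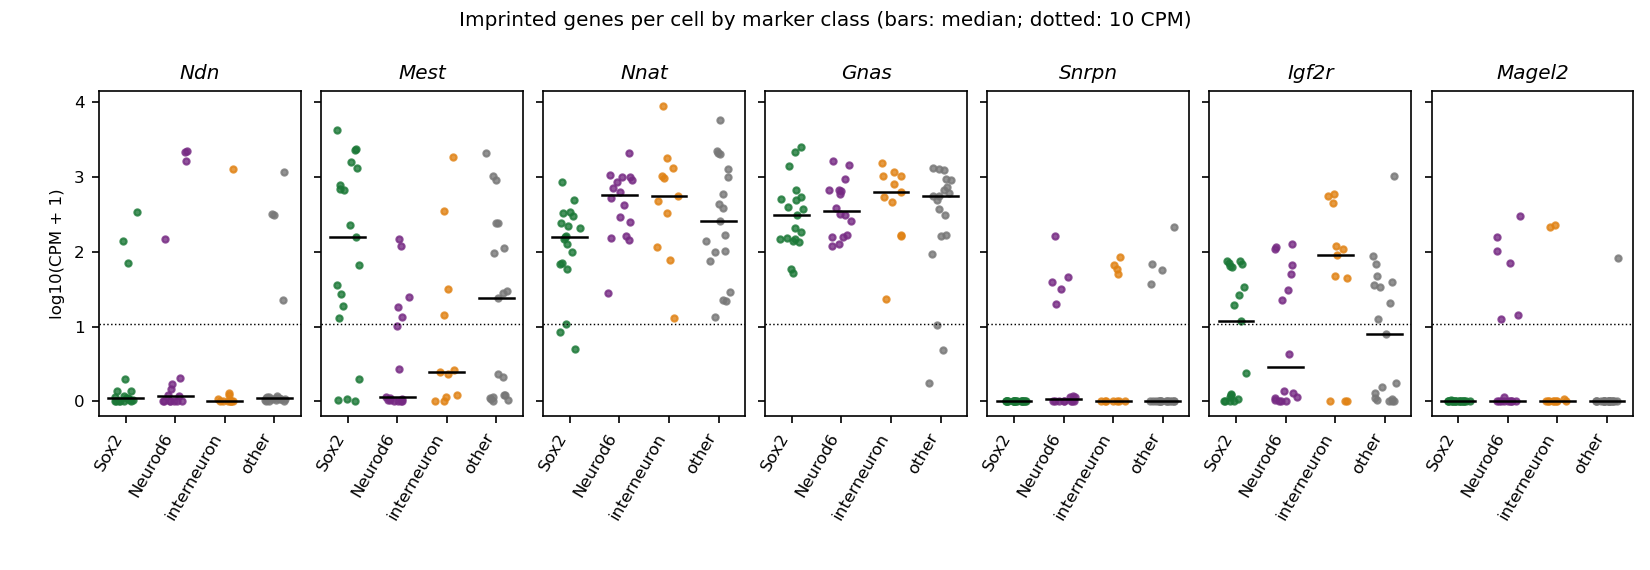
Level of each imprinted gene in each of the 65 cells, as log10(CPM + 1), by class of cell (19 Sox2 cells, 16 Neurod6 cells, 11 interneuron-type cells and 19 other cells). Points are cells, bars are medians and the dotted line is 10 CPM; Snrpn and Magel2 have no Sox2 cell above the line, while 15 of 19 Sox2 cells are above it for Mest.

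To ask which lineage each gene went with, each cell was put into 1 of 4 classes by genes other than the 7. A total of 11 cells had at least 3 of 13 measured interneuron and ventral telencephalon genes, such as Dlx5 and Gad2, at 10 CPM and were called interneuron-type. Of the rest, 16 cells had Neurod6 at 10 CPM, 19 had Sox2, and 19 had neither. Cells were also ordered along an axis, the mean log2(CPM + 1) of 23 pan-neuronal genes minus that of 24 apical progenitor genes, so that low ranks are progenitors and high ranks are neurons. Spearman's rho with that axis is a description of these 65 cells, which share depth and the total by which CPM is scaled, and it carries no test.

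Over all cells, Snrpn had the highest rho with the axis in the family, at 0.60 against 0.55 for Nnat. Within title sets 1 and 2, Nnat had the higher rho, at 0.72 and 0.57 against 0.63 and 0.52 for Snrpn. Snrpn reached 10 CPM in 5 of 16 Neurod6 cells, 4 of 11 interneuron-type cells and 4 of 19 other cells. It had not a single read in the 19 Sox2 cells, which together held 314480480 reads. A count of 0 of 19 cells allows a share of up to 15.8% by the rule of 3 counts, and of 17.6% as the upper limit of the exact interval. All 13 Snrpn cells were among the 34 Dcx cells and among the 31 cells with Stmn2, a gene of growing axons, and none was among the 31 cells without Dcx. They lay at ranks 38 to 65 of the axis, and rho was 0.60 over all cells and 0.63, 0.52 and 0.59 in title sets 1, 2 and 3. Of all 8377 genes with a mean of at least 10 CPM, 0.394% had a higher rho. Snrpn passed that mean only through the neurons that express it, so its place among these genes was largely set by the filter.

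The 13 Snrpn cells were of both neuronal lineages. The highest was cell 10 of title set 2, at 215 CPM, which had Dcx at 1337 CPM and neither Neurod6 nor Dlx5. Cell 17 of set 1, a Neurod6 cell, had 161 CPM, and cell 11 of set 1, an interneuron-type cell with Dlx5 at 829 CPM, had 84.1 CPM. Neurod6 and interneuron-type cells thus both carried Snrpn, and 7 of the 13 also had Tbr1, a transcription factor of deep-layer cortical neurons. Eomes, a marker of intermediate progenitors, was at 10 CPM in 5 of the 13 cells and 15 of the 52 others. Top2a, a gene of dividing cells, was at that level in 4 of the 13 and 28 of the 52 others. Within the 13 cells, rho with the axis was 0.16.

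Genes with the pattern most like that of Snrpn were Map1b (rho 0.61), Stmn3 (0.59), Robo1 (0.58), Ift46 (0.57) and Stmn2 (0.57). Map1b and the stathmins encode microtubule regulators of axons, and Robo1 is the receptor for the guidance cue Slit. Stmn2 and Stmn3 were at 10 CPM in all 13 Snrpn cells. The genes with the lowest rho were Notch2 (-0.56), a receptor of progenitor maintenance, Tuba1b (-0.54) and 1190002F15Rik (-0.49), and 0 of the 13 Snrpn cells had Notch2 at 10 CPM, against 20 of all 65. Among the lineage genes, Tubb3, the neuronal tubulin, also went with Snrpn (0.55).

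Magel2 was read in young neurons too, and most of its cells had Neurod6. It was at 10 CPM in 6 of 16 Neurod6 cells (37.5%, interval 15.2 to 64.6%), 2 of 11 interneuron-type cells (18.2%, interval 2.28 to 51.8%, which overlaps) and 1 of 19 other cells, and the 19 Sox2 cells together held 1 read. All 9 Magel2 cells were Dcx cells, and 0 of the 31 cells without Dcx reached 10 CPM. The highest were cell 5 of title set 1, a Neurod6 cell at 297 CPM, cell 37 of set 3, an interneuron-type cell at 226 CPM, and cell 42 of set 1, an interneuron-type cell at 217 CPM. The intermediate progenitor gene Eomes was at 10 CPM in 5 of the 9 cells and 15 of the 56 others. Neurog2, of the same kind, was at that level in 3 and 16, and Top2a in 1 and 31. Magel2's rank correlation with the axis was 0.37 over all cells, 0.45 in set 1 and 0.43 in set 3, and 2.89% of genes had a higher value. Magel2 too passed the mean of 10 CPM only through the neurons that express it, so that place was largely set by the filter.

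The genes most like Magel2 were mostly seen in few cells. Synpr, which encodes a synaptic vesicle protein, had rho 0.56 and was at 10 CPM in 4 cells, every one of them a Magel2 cell. Mgat3 (0.51), Klhdc5 (0.50), Crtac1 (0.48) and Atp2b2 (0.48), which encodes a calcium pump of neuronal membranes, followed. The lowest were Mcm4 (-0.46), part of the replicative helicase, Etfa (-0.44) and Wdr76 (-0.43), and 0 of 9 Magel2 cells had Mcm4 at 10 CPM, against 22 of all 65. Dpysl3 and Map1b, both pan-neuronal genes, had rho of 0.42 and 0.42, and the progenitor genes Notch1 and Zfp36l1 had -0.40 and -0.39, with neither at 10 CPM in any of the 9 cells.

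Nnat was read in every cell but was higher in neurons. Its median was 157 CPM in the 19 Sox2 cells, 582 CPM in the 16 Neurod6 cells and 555 CPM in the 11 interneuron-type cells, with ranges of 4.07 to 862, 27.3 to 2078 and 11.9 to 8954 CPM that overlapped. None of the 13 highest Nnat cells was in the Sox2 class, but 1 of them, the interneuron-type cell 6 of set 2, had Sox2 at 189 CPM. Dcx was at 10 CPM in 12 of the 13 and 22 of the 52 others. The progenitor gene Pax6 was at that level in 7 of the 13 and 22 of the 52 others. The median of Nnat was 679 CPM in Dcx cells against 149 CPM in the others. Nnat's rank correlation with the axis was 0.55 over all cells, with 0.72, 0.57 and 0.20 in sets 1, 2 and 3, and 0.680% of genes had a higher value. The tie to the axis was thus weak in set 3, where rho with Dcx was 0.06. By title set the median of Nnat was 294, 991 and 208 CPM, and 6 of its 13 highest cells came from set 2. The rank correlation between Nnat and the total reads of a cell was -0.30. Whether depth or the title set had a part in the level of Nnat was not tested.

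The genes most like Nnat were those of postmitotic neurons. Cdk5r1 (rho 0.64) encodes the p35 activator of the kinase Cdk5, Scn3a (0.61) encodes a sodium channel of embryonic neurons, and Dcx (0.59), Rtn1 (0.58) and Stmn2 (0.57) are pan-neuronal genes of the list behind the axis. Hmgn2 (-0.59), a chromatin protein, Rpsa (-0.57), a ribosomal protein, and Npm1 (-0.56), a nucleolar protein, had the lowest rho. The rank correlation of Nnat with the mean level of 26 G1/S genes was -0.47 and with 30 G2/M genes also -0.47, but in title set 3 they were -0.20 and -0.15. Some of the highest Nnat cells did hold transcripts of dividing cells: cell 6 of set 2, with Nnat at 1304 CPM, had Mki67 at 330 CPM and Top2a at 124.8 CPM. Within RefSeq, Nnat lies inside Blcap, and the rho between the 2 genes was 0.26. The library kit does not keep strand, so reads of Nnat and Blcap, of Mest and Copg2, of Igf2r and Airn, and of Gnas and its antisense transcripts cannot be told apart where they overlap.

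Mest ran the other way. It reached 10 CPM in 15 of 19 Sox2 cells (78.9%, interval 54.4 to 93.9%), 5 of 16 Neurod6 cells (31.2%, interval 11.02 to 58.7%), 4 of 11 interneuron-type cells and 10 of 19 other cells. All 5 of those Neurod6 cells were from title set 1, which held 11 of the 16. The median was 159 CPM in Sox2 cells, from 0 to 4258 CPM, and 0.128 CPM in Neurod6 cells, from 0 to 146 CPM. Among all cells with Sox2 at 10 CPM, 16 of 22 had Mest, against 18 of the 43 others. Summed over reads, Mest made up 658 CPM of the Sox2 cells (95% Poisson interval 655 to 661) and 17.5 CPM of the Neurod6 cells (16.95 to 18.1). These intervals treat reads as independent and leave out the spread over cells.

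The highest Mest cells were mostly, but not only, progenitors. Cell 19 of title set 2 (4258 CPM), cell 6 of set 1 (2375 CPM) and cell 5 of set 2 (2298 CPM) were Sox2 cells. Cell 31 of set 1, at 2116 CPM, had neither Sox2 nor Dcx at 10 CPM, had Tubb3 at 641 CPM and stood at rank 5 of the axis, and cell 14 of set 2, at 1865 CPM, was an interneuron-type cell with Dcx at 2504 CPM. Of the 13 highest cells, 8 were Sox2 cells, 2 interneuron-type cells and 3 other cells, and 0 were Neurod6 cells. Mest's rank correlation with the axis was -0.44 over all cells and -0.46, -0.57 and -0.34 in sets 1, 2 and 3, and 97.6% of genes had a higher value.

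The pattern most like that of Mest was that of Zic2 (rho 0.55), a transcription factor of midline and progenitor cells, followed by Nrarp (0.52), a target and feedback inhibitor of Notch signalling. Nrarp was at 10 CPM in 12 cells and all 12 had Mest. Stard4 (0.49), Sepn1 (0.48) and Phrf1 (0.48) came next. Abracl (-0.50), Tubb3 (-0.49) and Stmn1 (-0.49) had the lowest rho, and the progenitor genes Phgdh (0.41), an enzyme of serine synthesis, and Zfp36l1 (0.40) went with Mest. The rank correlation of Mest was 0.37 with the mean level of the apical progenitor genes (0.48, 0.65 and 0.08 in sets 1, 2 and 3). With that of the intermediate progenitor genes it was -0.26. Its rank correlation with the G1/S and G2/M lists was 0.23 and 0.23, with -0.16 and 0.01 in title set 3.

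**Figure D2:**
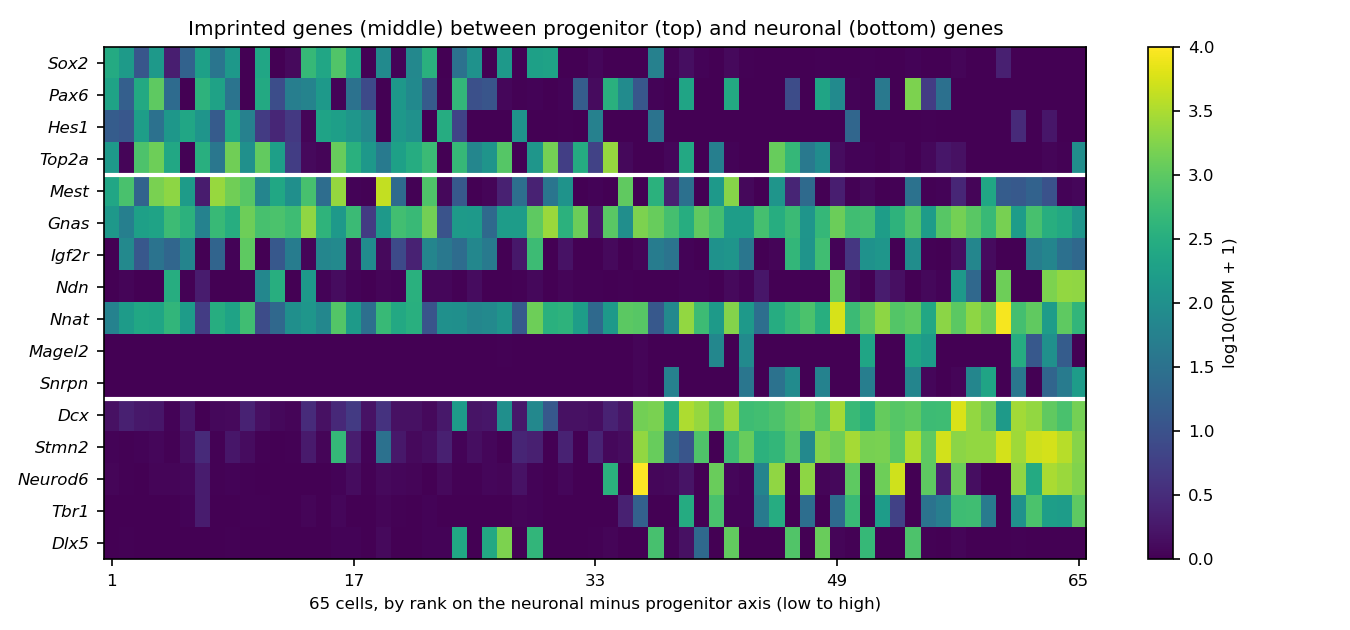
Levels of progenitor genes (top), the 7 imprinted genes (middle) and neuronal genes (bottom) as log10(CPM + 1) in colour, with the 65 cells ordered by rank on the neuronal minus progenitor axis. Mest is high mostly in low-ranked cells, whereas Snrpn begins at rank 38 and Magel2 at rank 41.

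Ndn was not bound to a single stage. Its 12 cells were 3 Sox2 cells, 4 Neurod6 cells, 1 interneuron-type cell and 4 other cells, at ranks 5 to 65 of the axis. The 3 highest were the 3 most neuronal cells of all, at ranks 63 to 65: cell 8 of title set 1 with 2260 CPM, cell 17 of set 1 with 2169 CPM and cell 26 of set 3 with 1649 CPM. They had Neurod6 at 2471, 1733 and 3099 CPM and no Sox2 read.

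Other Ndn cells were further from that state. Cell 22 of title set 2, with 1187 CPM, had 6 of 9 measured Cajal-Retzius genes at 10 CPM, a set known from neurons of the cortical surface, but Reln itself, which encodes their secreted protein reelin, was at 0.0758 CPM in it. Cell 23 of set 2, with 1291 CPM from 1063 reads, was counted as interneuron-type from Dlx6, Gad2 and Zfhx3 alone, had none of Dlx1, Dlx2 and Dlx5 at 10 CPM, and held only 823472 reads in all. At the progenitor end, cell 23 of set 3 (344 CPM), cell 16 of set 2 (140 CPM) and cell 14 of set 1 (70.7 CPM) were Sox2 cells, and cells 30 and 31 of set 1 (324 and 314 CPM) stood at ranks 12 and 5. The remaining cells were cell 17 of set 2 (147 CPM), a Neurod6 cell, and cell 18 of set 1 (21.5 CPM), which had Dcx. The progenitor-side Ndn cells thus had 344 CPM at most, and the 5 cells of 1187 CPM or more were all at rank 49 or higher. Ndn's rank correlation with the axis was 0.67 within the 12 cells but 0.17 over all 65, and 0.03, 0.35 and 0.44 in sets 1, 2 and 3.

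No gene followed Ndn closely. The highest rho were those of Hace1 (0.45), Wwp1 (0.44), Znrf2 (0.44), Flrt2 (0.43) and Cdkn1a (0.43), a cell-cycle inhibitor that was at 10 CPM in 5 cells, 4 of which were Ndn cells. Hace1, Wwp1 and Znrf2 all encode ubiquitin ligases, and they were at 10 CPM in 9, 15 and 9 cells. Of these, 4, 7 and 4 were Ndn cells. The other 53 cells had Ndn at 1.04 CPM at most, so these rho rest in part on the order of cells with few Ndn reads or none. Tceb1 (-0.48), Kif2c (-0.45) and Mettl5 (-0.44) had the lowest, and Kif2c, a mitotic kinesin, was at 10 CPM in 9 cells and in 0 of the 12 Ndn cells. Of the lineage genes, Ina (0.38), a neuronal filament gene, and Tbr1 (0.38) were positive and Gad2 was negative (-0.33). Tbr1 was at 10 CPM in 6 of 12 Ndn cells and 13 of the 53 others. Dlx5 and Dlx2 were at that level in 0 of the 12 and in 11 and 8 of the 53 others. Gad2, however, was at 10 CPM in 2 of the 12 Ndn cells and 9 of the 53 others.

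Igf2r did not follow the axis over all cells but was high in interneuron-type cells. Igf2r's rank correlation with the axis was 0.00 over all cells, with 0.27, -0.34 and -0.21 in sets 1, 2 and 3. It reached 10 CPM in 10 of 19 Sox2 cells, 7 of 16 Neurod6 cells, 8 of 11 interneuron-type cells (72.7%, interval 39.03 to 93.98%) and 9 of 19 other cells. The median was 89.1 CPM in interneuron-type cells, from 0 to 592 CPM, against 11.05 CPM in Sox2 cells, from 0 to 75.4 CPM, and 1.86 CPM in Neurod6 cells, from 0 to 124.6 CPM. The mean was higher in interneuron-type than in Sox2 cells within each title set, at 195 against 27.7, 225 against 27.9 and 77.0 against 23.8 CPM. These set means rest on only 6, 3 and 2 interneuron-type cells and on 8, 5 and 6 Sox2 cells.

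Of the 13 highest Igf2r cells, 6 were interneuron-type cells, among them cell 29 of set 1 (592 CPM), cell 6 of set 2 (556 CPM) and cell 11 of set 1 (443 CPM). The highest cell of all, cell 40 of title set 3 with 1030 CPM, had 6 of 7 measured mural and meningeal genes at 10 CPM, such as Col3a1, a collagen of connective tissue, which summed to 19800 CPM in it. That cell also had Mest at 903 CPM, the 9th highest value, and Gnas at 1308 CPM. Cell 29 of set 3, with 5 of those 7 genes, had Igf2r at 0.783 and Mest at 27.5 CPM, so the cells with mural genes did not share a level of Igf2r. Genes most like Igf2r were Grik3 (rho 0.45), a kainate receptor subunit found in 4 cells, all with Igf2r, and Mplkip (0.42), Ssr3 (0.42), Amotl1 (0.42) and Rprd2 (0.41). The lowest were Phldb2 (-0.37), Cby1 (-0.33) and Cnn3 (-0.33). Of the lineage and cell-cycle genes, the G2/M genes Ube2c (-0.28) and Cenpa (-0.28), Eomes (-0.27) and the pan-neuronal gene Gap43 (-0.24) were negative. Dlx6as1, of the interneuron list, was positive (0.25). Each kept its sign in every title set, and Eomes was at 10 CPM in 20 cells, 7 of which were Igf2r cells.

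Gnas was the most even of the 7. Its median was 310 CPM in Sox2 cells, 353 CPM in Neurod6 cells, 633 CPM in interneuron-type cells and 559 CPM in other cells, and the ranges of all classes overlapped. Gnas's rank correlation with the axis was 0.17 over all cells and 0.17, 0.17 and 0.04 in the 3 sets. Its median by title set was 464, 1030 and 373 CPM, so set 2, which had the lowest median depth of 8127759 reads, had the highest Gnas, and 7 of the 13 highest Gnas cells came from it. The rank correlation between Gnas and the total reads of a cell was -0.27, and whether depth or the title set had a part in its level was not tested. The genes most like Gnas reached only 0.37 (St8sia2), 0.35 (Deb1), 0.34 (Emc7), 0.34 (Rxrb) and 0.33 (Nin), and the lowest were Triap1 (-0.48), Adprm (-0.46) and Tmem208 (-0.46). The lineage and cell-cycle genes with the largest rho of either sign were all negative in every title set. They were Ednrb (-0.45), at 10 CPM in 4 cells, and Hes1 (-0.28) of the apical progenitor list, and Tyms (-0.36) of the G1/S list. Dll3 (-0.34) of the intermediate progenitor list and Nfia (-0.27) of the excitatory neuron list were the others.

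**Figure D3:**
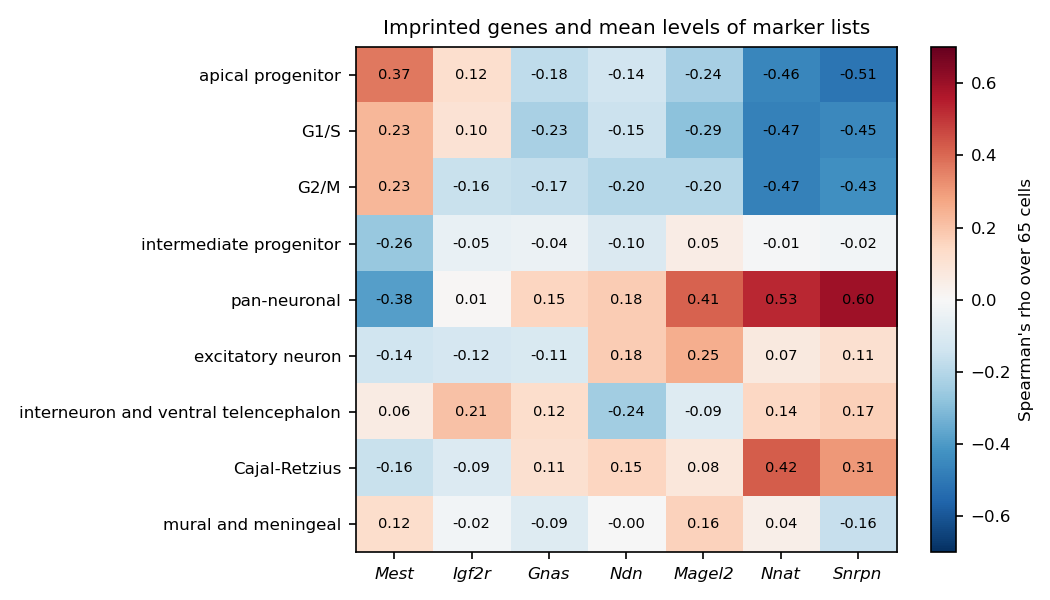
Spearman's rho over 65 cells between each imprinted gene and the mean level of each marker list, as log2(CPM + 1), with the value written in each square. Mest is positive with the apical progenitor list (0.37) and negative with the pan-neuronal list (-0.38), while Snrpn (-0.51 and 0.60) and Nnat (-0.46 and 0.53) have the opposite signs.

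The classes were then compared by their means, cells weighted equally. Against the Sox2 cells, the mean of CPM plus 1 in Neurod6 cells was at least 2-fold higher for 4 of the 7 genes, Ndn, Nnat, Snrpn and Magel2, and at least 2-fold lower for Mest. Over all 8377 genes with a mean of at least 10 CPM, 24.5% were higher and 30.6% lower by that much. Snrpn and Magel2 passed the mean of 10 CPM only through the neurons that express them, so their place in that count was largely set by the filter. Nnat was 3.11-fold higher in Neurod6 than in Sox2 cells (640 against 206 CPM), and its mean was higher in each title set, at 753 against 115, 509 against 365 and 315 against 194 CPM. Its log2 difference of 1.63 fell below 2-fold, to 0.53, without title set 1. Mest was 37.1-fold lower, at 20.6 against 766 CPM, and was lower in each set, with 29 against 619, 0.855 against 1612 and 3.05 against 257 CPM. The set means of Nnat and Mest rest on only 11, 2 and 3 Neurod6 cells and on 8, 5 and 6 Sox2 cells. Gnas (539 against 557 CPM) and Igf2r (32.5 against 26.5 CPM) were within 2-fold. The 13.3-fold higher mean of Ndn, 389 against 29.3 CPM, rested on 3 cells, and the medians were 0.195 and 0.0936 CPM. No fold is given for Snrpn and Magel2, whose means in Neurod6 cells were 18.4 and 40.6 CPM, because the Sox2 cells held 0 and 1 reads.

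Interneuron-type cells were at least 2-fold higher than Sox2 cells for 5 of the 7 genes and lower for Mest, where 23.6% and 34.5% of all genes were higher and lower. The 5 include Snrpn and Magel2, again largely through the filter, and Ndn, through 1 cell. Both comparisons share the Sox2 cells. Igf2r was 6.84-fold higher (182 against 26.5 CPM), and the means of Snrpn and Magel2 in interneuron-type cells were 23.4 and 40.3 CPM. Mest was 3.71-fold lower, at 206 against 766 CPM, with medians of 1.46 and 159 CPM. Its log2 difference of -1.89 was -0.96 without title set 1, -3.23 without title set 2 and -4.21 without cell 14 of title set 2, its highest interneuron-type cell. Nnat was 6.91-fold higher, at 1422 against 206 CPM, with a log2 difference of 2.78 that became 1.70 without cell 23 of title set 2, the shallow cell with its highest value of 8954 CPM. The mean of Ndn, 117 against 29.3 CPM, came from that cell alone: without it the log2 difference turned from 1.97 to -4.84, and the reads summed over the class gave 7.22 CPM (95% Poisson interval 6.80 to 7.67) in interneuron-type and 35.4 CPM (34.8 to 36.1) in Sox2 cells. Of the 1069 Ndn reads of the interneuron-type cells, 1063 came from that cell, and both intervals leave out the spread over cells.

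Along the axis, 4 of the 7 genes, Ndn, Nnat, Gnas and Snrpn, had a positive rho in every title set, where 13.2% of all genes did so. The set 2 value of Snrpn rested on 1 cell with 1424 reads and 1 cell with 1 read, and Snrpn was among the genes counted only through its neurons. Mest was negative in every set, as were 24.8% of all genes. Magel2, positive in sets 1 and 3, could not be counted because it had no reads in set 2, and Igf2r was mixed. The median rho of all 8377 genes was -0.05, so the middle of the distribution lay slightly on the progenitor side.

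Cells that held 1 gene of the Prader-Willi domain did not always hold the next. Snrpn and Magel2 were both at 10 CPM in 6 cells, which are 46.2% of the Snrpn cells and 66.7% of the Magel2 cells (rho 0.44, with 0.24 in title set 1 and 0.91 in set 3). Ndn and Magel2 are next to each other in the RefSeq annotation with no gene between them, but shared 2 cells, 16.7% of the Ndn cells and 22.2% of the Magel2 cells, and their rho was -0.19, with -0.25 in title set 1 and 0.10 in set 3. These shares are close to those over all cells, where 13.8% had Magel2 and 18.5% had Ndn. Ndn and Snrpn shared 4 cells, 33.3% and 30.8% of each. In cell 5 of title set 1 Magel2 was at 297 CPM with no read of Ndn, and in cell 17 of that set Ndn was at 2169 CPM without Magel2 at 10 CPM.

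The rest of the domain was just as uneven. In their order along chromosome 7, Atp10a reached 10 CPM in 0 cells, Ube3a in 33, Ipw in 2, Snrpn in 13, Ndn in 12, Magel2 in 9, Mkrn3 in 4 and Peg12 in 29. Both cells with Ipw, a noncoding transcript downstream of Snrpn, had Snrpn as well. Peg12 lay on the progenitor side, with 15 of 19 Sox2 cells, 6 of 16 Neurod6 cells and rho -0.34, whereas Ube3a, the ubiquitin ligase lost in Angelman syndrome, was spread over 10 Sox2 and 11 Neurod6 cells with rho 0.04. Genes at either end of the axis thus lie within the same imprinted domain. Snurf and Snhg14, which overlap Snrpn in RefSeq, were not analysed here.

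Other imprinted genes were found on both sides of the axis. Of 71 further genes on a list of imprinted genes, 44 were in the table, 30 reached 10 CPM in at least 5 cells and 34 had a mean of at least 10 CPM. Of those 34, 10 were positive and 9 negative with the axis in every title set, where 13.2% and 24.8% of all 8377 genes were, so the negative count is near the share of all genes. Their median rho was 0.02. On the progenitor side with Mest were Grb10 (-0.47), an inhibitor of insulin and growth factor receptors, Plagl1 (-0.42), a zinc finger transcription factor at the centre of a network of imprinted genes, and Peg12. Grb10 was at 10 CPM in 18 of 19 Sox2 cells and 7 of 16 Neurod6 cells, and Plagl1 in 11 of 19 and 1 of 16.

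On the neuronal side, among genes at 10 CPM in at least 10 cells, were Peg13 (0.44), Inpp5f (0.37), Blcap (0.31), Meg3 (0.28) and Cdkn1c (0.28), while Osbpl5 (0.33) was at that level in 7 cells. Peg13 was at 10 CPM in 3 of 19 Sox2 cells and 9 of 16 Neurod6 cells, and Blcap in 1 of 19 and 7 of 16. Cdkn1c, a cell-cycle inhibitor, was positive in set 1 (0.49) and negative in sets 2 and 3 (-0.13 and -0.18). Kcnq1ot1 was at 10 CPM in all 65 cells, and Airn, the noncoding transcript that silences Igf2r on the paternal copy in most tissues, reached 10 CPM in none, with a highest value of 1.57 CPM. Igf2, the ligand of Igf2r, was at 10 CPM in 2 cells, H19 in 3 and Dlk1 in 3, so these growth genes of the embryo reached that level in few of these cells.

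**Figure D4:**
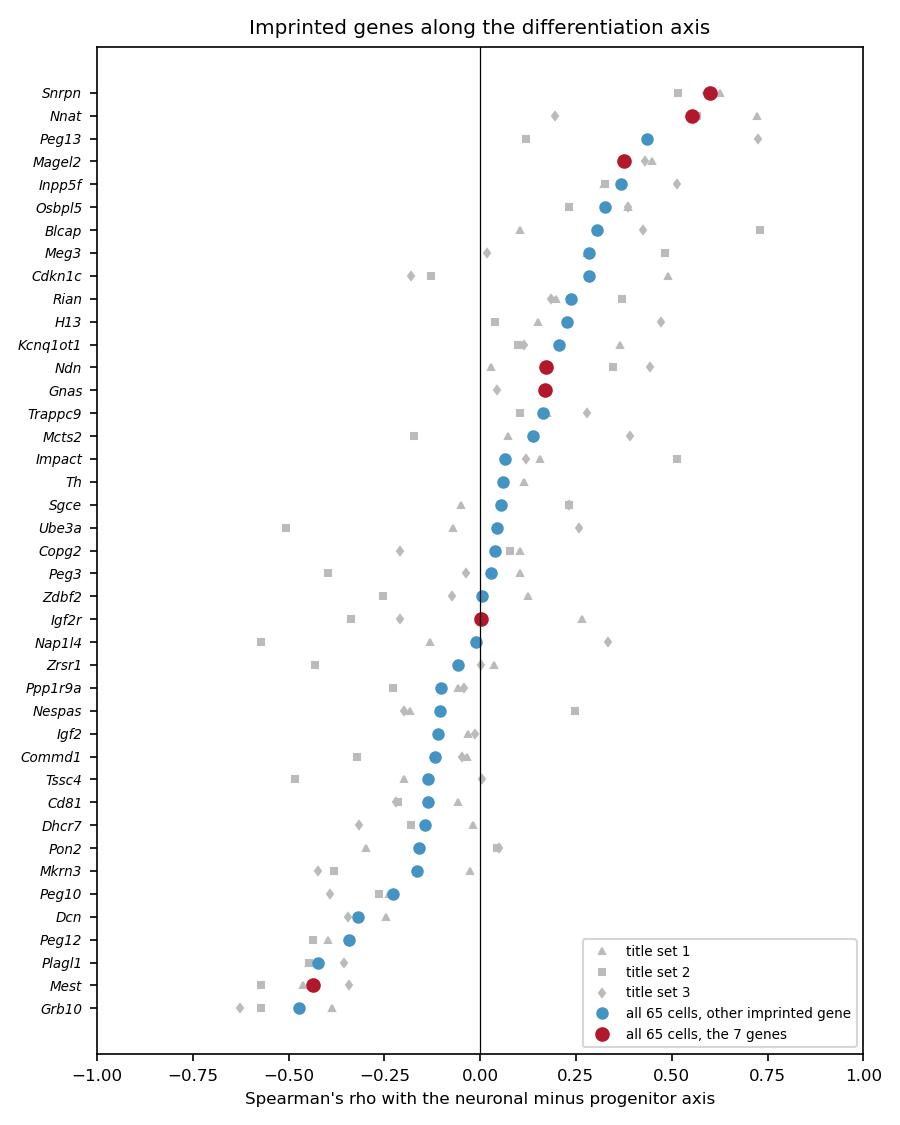
Spearman's rho with the neuronal minus progenitor axis for the 7 genes (red) and for 34 other imprinted genes (blue) with a mean of at least 10 CPM, over 65 cells, with the value in each title set in grey where the gene had reads there. Snrpn (0.60) and Nnat (0.55) are at the top, and Mest (-0.44) and Grb10 (-0.47) at the bottom.

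Markers of other cell types were looked at beside the highest cells. Among the 13 Snrpn cells and the 9 Magel2 cells, 1 mural or meningeal gene of 7 and 1 microglial gene of 6 reached 10 CPM in any cell, with summed levels of 0 to 261 CPM and 0 to 12.6 CPM, and Col1a1 had no read in any of them. Cajal-Retzius genes were more frequent there: 8 of the 9 reached 10 CPM in some Snrpn cell and 5 in some Magel2 cell. Their summed level had a median of 154 CPM in the Snrpn cells against 2.45 in the others, with rho 0.31, and of 99.7 against 3.34 CPM for Magel2. The part of such genes' cells in the Snrpn and Magel2 levels was not tested. In the 13 highest Nnat cells the Cajal-Retzius genes summed to between 0 and 9750 CPM with a median of 53.4, against 2.44 in the other cells, with rho 0.42 between Nnat and that list. The 2 cells with most of those genes were among the 5 highest for Nnat, at 5727 CPM in cell 22 of title set 2 and 2078 CPM in cell 39 of set 1, which had Reln at 7134 CPM. The part of such cells in the level of Nnat over the neurons was not tested, but the Nnat log2 difference between Neurod6 and Sox2 cells was 1.63 with and 1.40 without the 4 cells rich in Cajal-Retzius or mural genes. Hbb-y, an embryonic globin of red blood cells, followed the title sets, at 10 CPM in 10 of 31, 13 of 13 and 21 of 21 cells, and 9 of the 13 Snrpn cells were from set 1. It was at 10 CPM in 8 of 13 Snrpn cells and 36 of the 52 others, in 11 of the 13 highest Nnat cells and 33 of the 52 others, in 10 of the 13 highest Mest cells and 34 of the 52 others, and in 10 of 12 Ndn cells and 34 of the 53 others. Its part in these levels was not tested.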

How the data were processed

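The deposited table holds whole-number read counts for 11971 genes in 65 cells, 1 library per cell. Per the submitters' processing notes, the tools were TopHat2 and HTSeq and the build was mm9; versions and roles are not stated there. The gene models behind the counts were not given in the sources used here. Counts were scaled in Python 3.11.15 (pandas 2.3.3, scipy 1.17.1) to CPM by each cell's total and, for correlations, logged as log2(CPM + 1). The depth of 85338 to 32130629 reads makes 1 read worth 11.7 CPM in the shallowest cell and 0.0311 CPM in the deepest.

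Cells were put in classes by marker genes that exclude the 7 genes described. Class means were compared by size (2-fold on mean CPM plus 1), and the background of each comparison is over 8377 genes with a mean of at least 10 CPM. Genes set beside a member were the 5 with the highest and the 3 with the lowest Spearman's rho. They were taken among genes of 1 sign in every title set (sets 1 and 3 for Magel2). Some or all of the 5 lineage or cell-cycle genes with the largest rho of either sign, under the same rule, were also named. Other imprinted genes were named among those at 10 CPM in at least 10 cells, the 20 in most cells, and a few further ones (such as Blcap, Osbpl5, Airn, Igf2 and the genes of the Prader-Willi domain) were named after their values were seen. High cells were the 13 highest, and only cells of at least 10 CPM, which left 12 for Ndn and 9 for Magel2. The members, marker lists and rules were chosen with earlier results of these data known. Alternatives were 1 and 50 CPM, scran 1.30.0 size factors (R 4.3.3), a pseudocount of 10, thinning to 1000000 reads, and leaving out shallow cells or a title set. Leaving out 4 cells rich in markers of other types, or cell 14 or 23 of title set 2, was added after seeing the data. No test was made, because cells of combined embryos are not replicates. The counting and correlation steps were tested on simulated data.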

Additional observations from a re-analysis of the deposited data

How the results depend on the processing

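Most values kept their direction under the alternatives tried. For the interneuron-type against the Sox2 cells, the log2 difference of Ndn, 1.97, turned to -5.17 with classes set at 50 CPM, -4.99 without cells under 1000000 reads, -4.93 without title set 2 and -4.84 without cell 23 of title set 2, each of which removes that cell from the class. That of Nnat, 2.78, was 1.67 without cells under 1000000 reads and 1.58 without title set 2. For the Neurod6 against the Sox2 cells, the log2 difference of Mest, -5.15, was -8.10 without title set 1. All 5 Neurod6 cells with Mest at 10 CPM were from that set, and without it the mean of Neurod6 cells was 2.17 CPM. Why those cells came from 1 set was not tested.

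The rank correlation of Ndn with the axis, 0.17, was 0.43 without title set 1, and the cause was not tested. That of Magel2, 0.37, was 0.44 as Pearson's r, 0.39 without cells under 1000000 reads, and 0.27, 0.45 and 0.36 without title sets 1, 2 and 3. Igf2r changed sign, within 2-fold, between Neurod6 and Sox2 cells (log2 0.28, and -0.83 without title set 1), as did Gnas (-0.05, with 0.21 by scran, 0.19 without cells under 1000000 reads, 0.62 without title set 2 and 0.02 without the 4 cells rich in markers of other types). At 50 CPM the share of cells with Mest was 33.8%, with Igf2r 29.2% and with Nnat 86.2%. No paired analysis was possible because the cells form 1 group. A depth of 85338 reads in the shallowest cell limits what can be said of low levels there.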
